A study of Mus musculus with 22 samples.

Results

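The neighbourhoods of the mouse genes Klf2 and Klf4 were described from ATAC-seq peak lists of retinal endothelial cells. A peak belonged to a locus if its midpoint lay in a fixed window of the mm9 genome build. The windows ran from 74.76 to 74.93 Mb on chromosome 8 for Klf2 (170 kb) and from 55.4 to 55.7 Mb on chromosome 4 for Klf4 (300.0 kb). They held 89 of the 106825 peaks on placed chromosomes, 31 in the gTKO list and 58 in the control list. The Klf2 window held 63 of them and the Klf4 window 26.

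The gTKO pups carried S1pr3-/- S1pr1flox/flox S1pr2flox/flox and the Rosa26-CreERT2 recombinase, and the control pups carried the same S1pr alleles without the recombinase. S1pr3 was thus missing in both genotypes, and S1pr1 and S1pr2 were targeted in gTKO only. These genes encode receptors for the blood lipid sphingosine 1-phosphate. All pups, on a C57BL/6 background, received intraperitoneal tamoxifen (100 µg) between postnatal days 1 and 3, and endothelial cells were sorted at postnatal day 6. The Rosa26 promoter is active in most cell types and so does not restrict the recombinase to endothelium. Effects of the recombinase itself cannot be told apart from those of receptor loss. A library pooled retinas of 4 to 6 pups and was made from 5000 to 8000 sorted cells. The labels' cell type entry also calls these cells adult, which conflicts with their age entry.

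ATAC-seq marks open chromatin through the DNA that a transposase can reach. Each genotype had 3 libraries but 1 deposited peak list. Spread between libraries can therefore not be measured here, and the genotypes are compared without a test. The lists hold positions only, with no score and no read depth. The gTKO list was the smaller one, with 49558 placed peaks covering 24228 kb against 57267 peaks covering 31430 kb in the control list. Loss of accessibility in each cell and a smaller share of cells with an open site cannot be told apart in such bulk samples. Neither deletion of S1pr1 and S1pr2 nor the defining markers of endothelium were checked, since both need values or mm9 gene positions that were not used here.

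Klf2 and Klf4 encode zinc finger transcription factors that endothelial cells make in response to steady laminar blood flow. Flow acts through the kinase cascade ending in ERK5 and through MEF2 factors, which bind the Klf2 promoter, and both KLF proteins raise genes of quiescent endothelium such as Nos3, the endothelial nitric oxide synthase, and Thbd, the anticoagulant receptor thrombomodulin. In mouse T cells KLF2 also drives S1pr1, a receptor gene targeted here. In the GRCm38 annotation of RefSeq the nearest protein-coding genes are Ap1m1, an adaptor subunit of vesicle transport, and Eps15l1, an endocytic adaptor, around Klf2. Around Klf4 they are Rad23b, a DNA repair and proteasome factor, and Actl7b, an actin-related gene of the testis. Klf2 is annotated on the plus strand and Klf4 on the minus strand.

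The promoters are shown because flow acts on Klf2 through MEF2 factors bound in its promoter, and that of Klf4 is given for comparison. Each sequence gives the 250 bases before the annotated start from RefSeq (build GRCm38.p6, 5′ to 3′ along the gene), for Klf2 at chr8:72318812-72319061 (+) and for Klf4 at chr4:55532476-55532725 (-). Capitals mark every match to a motif that was searched. These positions are in another build than the peaks and were not used to place them.
Klf2: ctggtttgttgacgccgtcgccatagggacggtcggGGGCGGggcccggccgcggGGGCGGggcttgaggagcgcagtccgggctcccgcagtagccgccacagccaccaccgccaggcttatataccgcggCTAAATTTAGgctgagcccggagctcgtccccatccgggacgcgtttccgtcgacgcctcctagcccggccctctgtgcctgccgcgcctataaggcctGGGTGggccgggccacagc
Klf4: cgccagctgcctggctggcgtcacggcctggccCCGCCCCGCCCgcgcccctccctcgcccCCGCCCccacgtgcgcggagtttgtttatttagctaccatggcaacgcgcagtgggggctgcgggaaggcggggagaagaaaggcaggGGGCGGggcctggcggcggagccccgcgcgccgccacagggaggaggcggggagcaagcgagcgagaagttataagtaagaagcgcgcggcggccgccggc

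The Klf2 promoter held 1 match to the MEF2 motif (CTA and TAG with any 4 bases between them), read as CTAAATTTAG, from -118 to -109 counted back from the annotated start, and the Klf4 promoter held none. A MEF2 match was found in 3.20% of the 32851 promoters of the table. The SP motif GGGCGG, the GC box of SP and KLF factors, had 2 matches in Klf2 and 4 in Klf4, and 32.7% of promoters held it. A pair of the Klf4 matches overlapped by 1 base. The KLF motif CACCC had 1 match in Klf2 and 0 in Klf4, against 52.0% of promoters. Neither promoter held the AP-1 motif TGANTCA (6.75% of promoters), the cyclic AMP response element TGACGTCA (1.55%), the ETS motif CCGGAAGT (2.88%), the SOX motif ACAAT (27.7%) or the RBPJ motif TGGGAA (21.6%). Both strands were searched. The promoters were rich in G and C, at 71.2% for Klf2 and 74.0% for Klf4, against a median of 52.4%. A match describes these letters only, and does not show that a factor binds there.

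At Klf2, the gTKO list held far fewer peaks than the control list. The window held 20 gTKO peaks covering 10438 bp and 43 control peaks covering 29653 bp. The gTKO coverage was 0.352 of the control coverage, against 0.771 over all placed chromosomes and 0.770 on chromosome 8. No gTKO peak lacked a control partner, where a partner is a peak of the other list that overlaps by at least 1 bp. A count of 0 among 20 peaks allows a share of up to 15.0% by the limit of 3 counts (exact upper limit 16.8%), and 9.75% of all gTKO peaks were gTKO-only. Of the control peaks, 24 of 43 had no gTKO partner, which is 55.8% (exact 95% Clopper-Pearson interval 39.9 to 70.9%), against 27.0% of all control peaks. Such intervals cover counting error only, and neighbouring peaks are not independent.

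**Figure D1:**
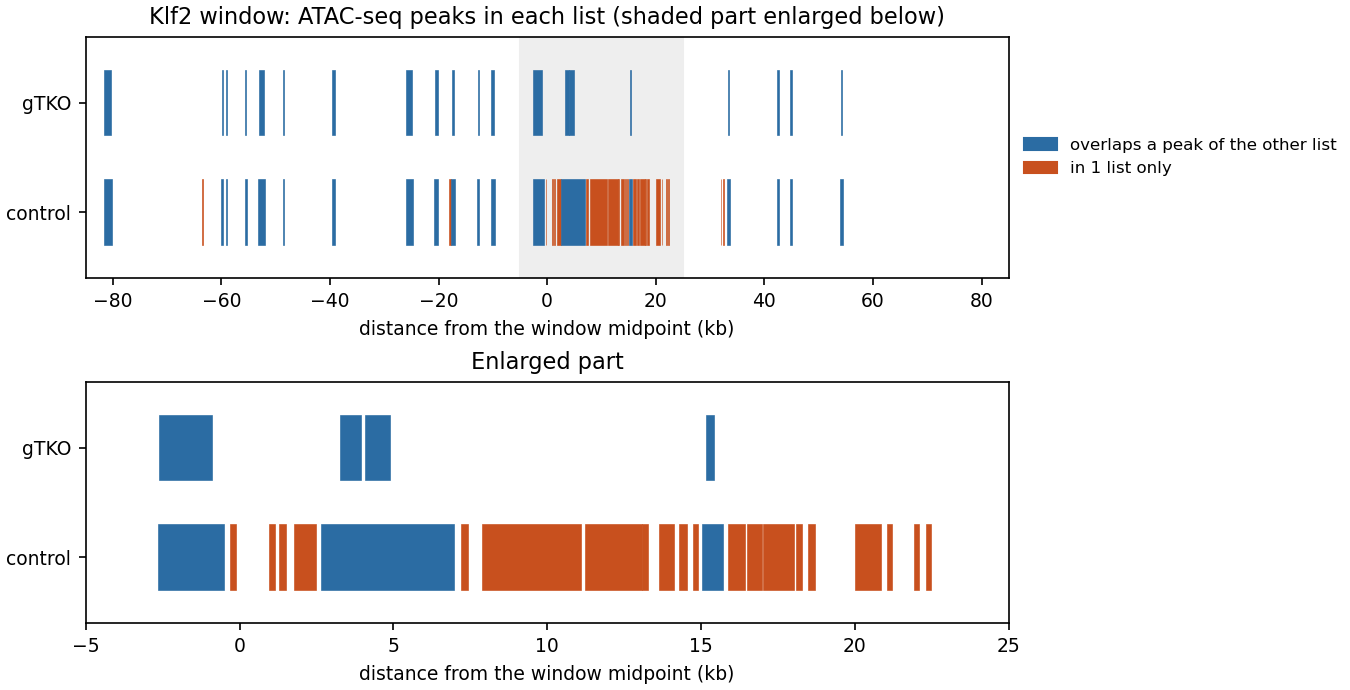
ATAC-seq peaks of the gTKO list (upper row) and control list (lower row) along the Klf2 window, as distance from the window midpoint in kb, with the shaded part enlarged in the lower panel. Blue peaks overlap a peak of the other list and orange peaks do not. In the enlarged part 4 gTKO peaks face 23 control peaks, of which 20 are orange.

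The mm9 position of the Klf2 gene was not used here, so distances are given from a central peak instead. This is the peak of at least 1 kb nearest to the window midpoint, a choice made after the lists were seen. The central Klf2 peak was called in both genotypes. It ran from 74842399 to 74844100 in gTKO (1702 bp) and from 74842357 to 74844497 in control (2141 bp), so that the gTKO peak was 0.795 of the control width. The peak closest to the window midpoint in the control list was a narrow control-only peak of 170 bp, from 74844703 to 74844872.

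Most control-only peaks lay on 1 side of the central peak, with 22 of the 24 towards higher coordinates. Of all 43 control peaks of the window, 14 lay below the central peak, and 12 of those were shared. Higher coordinates are the direction in which Klf2 is transcribed in GRCm38, and its orientation in mm9 was not checked. Control peaks no more than 3 kb apart formed an unbroken stretch from 74842357 to 74867462 (25.1 kb), beginning with the central peak. It held 4 gTKO peaks covering 3453 bp and 23 control peaks covering 18734 bp. All 4 gTKO peaks had a control partner, and 20 of the 23 control peaks had no gTKO partner. These 20 peaks covered 11581 bp, which was 61.8% of the control coverage of the stretch. The stretch was picked after its values were seen, so these counts describe it and support nothing further.

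Within the stretch, the widest control peak came after 4 control-only peaks. It ran from 74847636 to 74851964 (4329 bp) and ranked 22 by width among all 57267 control peaks. In gTKO it was represented by 2 separate peaks, from 74848259 to 74848956 (698 bp) and from 74849083 to 74849905 (823 bp). Together they covered 1521 bp, or 35.1% of the control peak. Control peaks that overlapped 2 or more gTKO peaks made up 5.28% of the control list. That list has a median width of 359 bp, and the share among peaks as wide as this one was not computed. Here the gTKO peaks lay in the part of the control peak nearer to the central peak, and its last 2059 bp had no gTKO peak.

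The widest control-only peak of the whole list followed after a narrow one. It ran from 74852875 to 74856105 (3231 bp), began 8.38 kb after the central peak, and lay 2969 bp from the nearest gTKO peak. A further control-only peak from 74856215 to 74858069 (1855 bp) came next and ranked 8 among the 15471 control-only peaks by width. Both lay in the same gap of the gTKO list. Between the gTKO peaks ending at 74849905 and starting at 74860177, a gap of 10271 bp held no gTKO peak, while control peaks covered 8621 bp of it (83.9%). Ranked by the control-covered length inside them, this gap was number 5 of 49537 gaps between neighbouring gTKO peaks, whose median was 105 bp.

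A single narrow gTKO peak interrupted the control-only run. It measured 230 bp, from 74860177 to 74860406, inside a control peak of 683 bp. Beyond it the gTKO list was empty again for 17861 bp, where 11 control-only peaks and parts of the neighbouring shared peaks covered 4567 bp, which ranked 20 among the gaps. The control-only peaks there included 1 of 995 bp from 74862016 to 74863010, 1 of 859 bp from 74864990 to 74865848, 1 of 576 bp from 74860862 to 74861437 and 1 of 505 bp from 74861486 to 74861990. Before the widest control peak of the stretch, 4 control-only peaks lay between 74844703 and 74847482, and the largest of them measured 714 bp, from 74846769 to 74847482. The other 13 control-only peaks of the stretch, all under 500 bp, measured 150 to 470 bp.

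These narrower peaks were spread along the stretch. Besides the peak of 170 bp named above, the part before the widest control peak held peaks of 190 bp from 74845962 to 74846151 and of 230 bp from 74846286 to 74846515. Between the widest control peak and the gTKO peak at 74860177 lay peaks of 244 bp from 74852189 to 74852432, of 183 bp from 74858099 to 74858281, of 470 bp from 74858649 to 74859118, of 261 bp from 74859271 to 74859531 and of 169 bp from 74859736 to 74859904. Beyond it lay peaks of 215 bp from 74863076 to 74863290, of 246 bp from 74863466 to 74863711, of 152 bp from 74866061 to 74866212, of 166 bp from 74866914 to 74867079 and of 150 bp from 74867313 to 74867462. The last of these began 22.8 kb past the central peak and lay 6906 bp from the nearest gTKO peak.

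Wide peaks without a partner were rare elsewhere. Of control peaks of at least 500 bp, 7 of 18 in the Klf2 window had no gTKO partner, against 2.37% over all placed chromosomes (515 of 21712) and 53 of 1373 on chromosome 8. All 7 lay in the stretch described above. No gTKO peak of at least 500 bp lacked a control partner in either window, and over all placed chromosomes 0.0936% did. By the length of their control-only peaks, the Klf2 stretch ranked number 5 of 38356 stretches of the control list. Of these, 12017 held a control-only peak and 10012 held 2 or more peaks. By number of control-only peaks the Klf2 stretch ranked 15. It was picked as the stretch of its window with the most control-only length, so these ranks only describe it.

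The gTKO list also covered less than the control list on both flanks of the Klf2 window. Below the stretch, towards lower coordinates, 12 gTKO peaks covered 6136 bp and 14 control peaks covered 8807 bp. The coverage ratio of 0.697 was near the 0.771 of all placed chromosomes. All 12 gTKO peaks there had a control partner. The 2 control-only peaks on that side were 14.3% of its control peaks, against 27.0% of all control peaks and 87.0% in the stretch. They measured 197 bp, from 74781390 to 74781586, and 353 bp, from 74826864 to 74827216. Every control peak of at least 500 bp there, 7 in all, had a gTKO partner. The pair farthest out measured 1263 bp in gTKO, from 74763365 to 74764627, and 1474 bp in control, from 74763317 to 74764790. Another wide pair measured 860 bp in gTKO, from 74791952 to 74792811, and 1211 bp in control, from 74791745 to 74792955. The pair nearest to the central peak among those over 1 kb in control measured 1074 bp in gTKO, from 74819033 to 74820106, and 1339 bp in control, from 74818965 to 74820303. Above the stretch, 4 gTKO peaks covered 849 bp and 6 control peaks covered 2112 bp, a coverage ratio of 0.402, against 0.184 in the stretch. The 2 control-only peaks there were 33.3% of the 6 control peaks. They ran from 74876929 to 74877078 and from 74877473 to 74877622, and both were 150 bp wide, the smallest width in the lists.

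Where the Klf2 window had the same peak in both lists, the gTKO peak was usually the narrower one. In 18 pairs that matched 1 to 1, the gTKO over control width had a median of 0.72 (range 0.27 to 1.06), against 0.87 over 37878 pairs (quartiles 0.73 and 0.97). The control peak was at least 1.5 times as wide in 8 of 18 pairs, against 17.3% of all pairs, and the gTKO peak was wider in 2 of 18, against 19.9% of all pairs. The most unequal pair was the outermost one above the stretch, with 180 bp in gTKO and 679 bp in control. The next was a pair inside the stretch, with 230 bp in gTKO and 683 bp in control. The central pair, also inside the stretch, had a ratio of 0.795. The pairs where gTKO was wider differed by little, with 151 bp in gTKO and 150 bp in control for 1, and 269 bp in gTKO and 254 bp in control for the other.

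**Figure D2:**
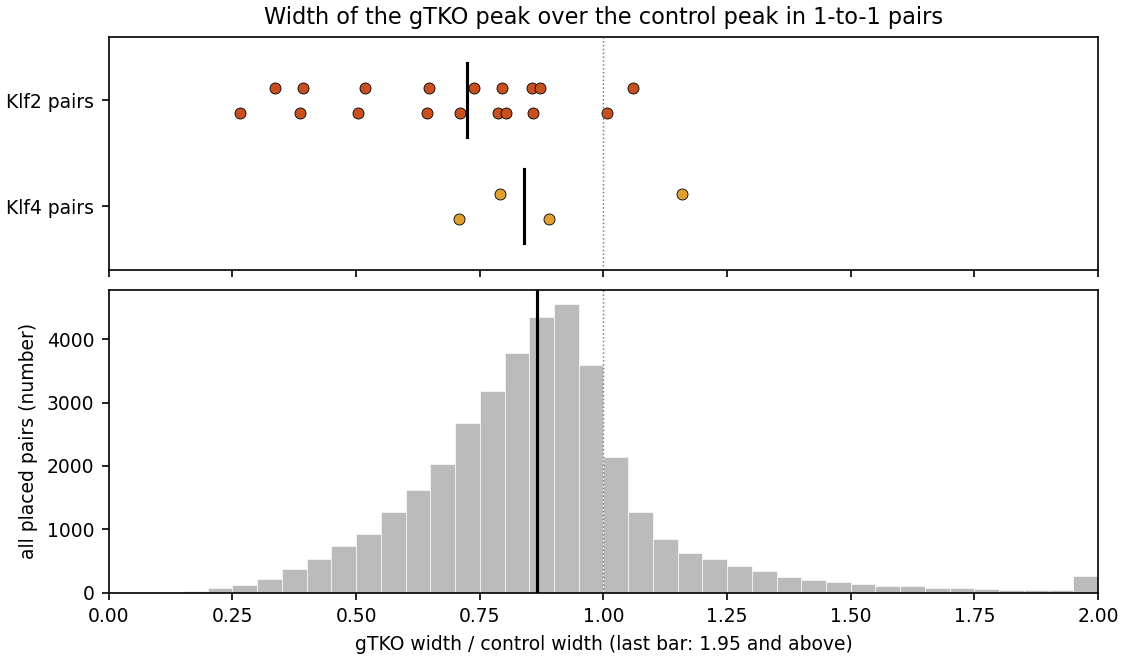
Width of the gTKO peak divided by that of the control peak in 1-to-1 pairs, for the 18 Klf2 and 4 Klf4 pairs (points, upper panel) and all 37878 placed pairs (bars, lower panel). Black lines are medians, at 0.72 for Klf2, 0.84 for Klf4 and 0.87 for all pairs, and the dotted line marks equal width.

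At Klf4 the difference between the lists was smaller in coverage, and the control-only peaks were narrow, as in the whole list. The window held 11 gTKO peaks covering 6915 bp and 15 control peaks covering 9995 bp, a ratio of 0.692, against 0.759 on chromosome 4. Here 1 gTKO peak had no control partner, which is 9.09% of 11 (exact interval 0.230 to 41.3%) beside the 9.75% of the whole list. It measured 167 bp, from 55485579 to 55485745, and lay 57.0 kb before the central Klf4 peak. Of the control peaks, 9 of 15 had no gTKO partner, which is 60.0% (exact interval 32.3 to 83.7%) beside the 27.0% of the whole list. These 9 peaks measured 155 to 418 bp and covered 2150 bp, 21.5% of the control coverage, against 41.9% at Klf2 and 11.5% over all placed chromosomes. Their median width was 202 bp, near the 194 bp of all control-only peaks. None of the 5 control peaks of at least 500 bp at Klf4 was control-only, where 2.37% of all such control peaks were.

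**Figure D3:**
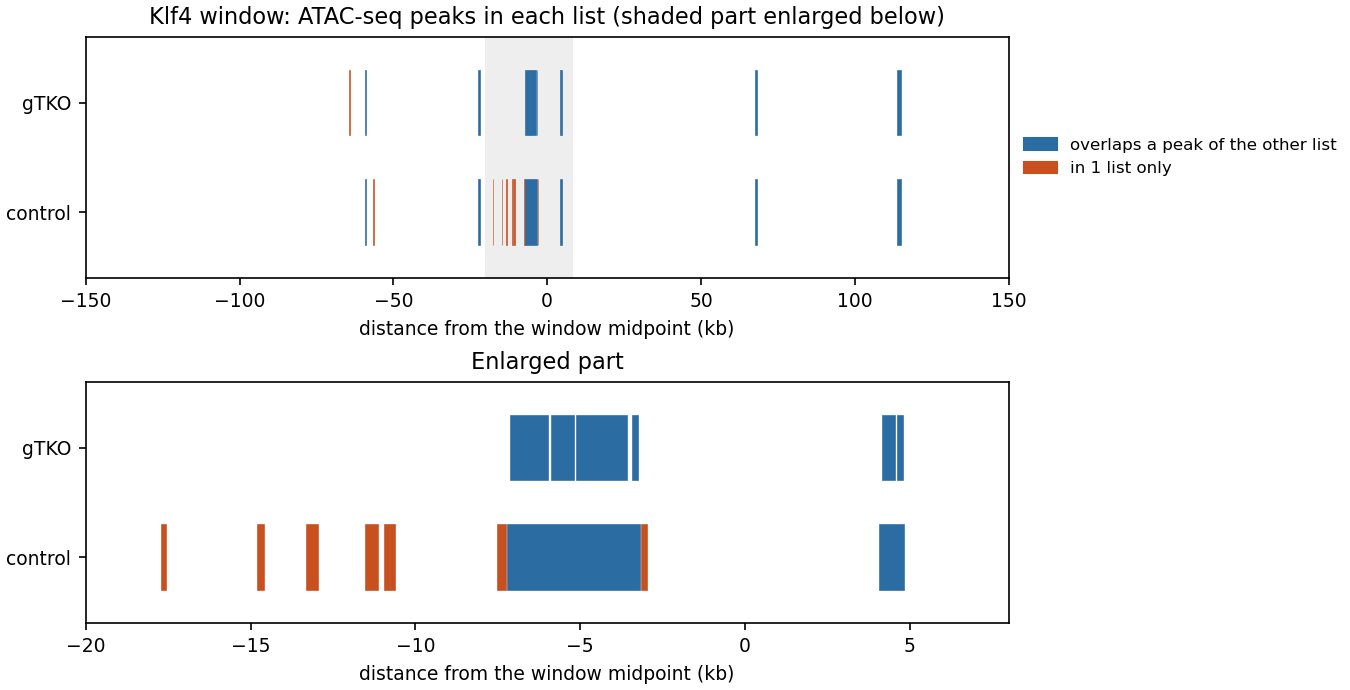
ATAC-seq peaks of the gTKO list (upper row) and control list (lower row) along the Klf4 window, as distance from the window midpoint in kb, with the shaded part enlarged in the lower panel. Blue peaks overlap a peak of the other list and orange peaks do not. The central control peak faces 4 gTKO peaks, and the 6 control peaks in the stretch to its left are all orange.

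The central Klf4 peak was among the widest of the control list. In control it was a single peak from 55542791 to 55546816 (4026 bp), which ranked 36 by width. In gTKO the same sequence held 4 peaks, from 55542874 to 55544028 (1155 bp), from 55544119 to 55544806 (688 bp), from 55544878 to 55546416 (1539 bp) and from 55546565 to 55546769 (205 bp). They covered 3587 bp, or 89.1% of the control peak, with gaps of 90, 71 and 148 bp between them. The central Klf4 peak was thus broken up in gTKO but nearly as fully covered. The central Klf2 peak was a single peak in gTKO, at 0.795 of the control width. The widest Klf2 peak, which is not the central one, kept 35.1% of its length. These differences between the loci were not tested. Control peaks that overlapped 2 or more gTKO peaks made up 5.28% of the control list. The share among peaks as wide as the central Klf4 peak was not computed. A control-only peak flanked the central Klf4 peak at each edge, of 285 bp from 55542470 to 55542754 and of 168 bp from 55546860 to 55547027, at 119 and 90 bp from the nearest gTKO peak.

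At Klf4, 8 of the 9 control-only peaks lay below the central peak, towards lower coordinates. A stretch of 6 of them ran from 55532293 to 55539396. Lower coordinates are the direction in which Klf4 is transcribed in GRCm38, and its orientation in mm9 was not checked. At both loci most control-only peaks thus lay on the same side of the central peak relative to the annotated direction of transcription. At both loci most control peaks of any class, the central peak aside, lay on that side too. A preference of control-only peaks for that side was not tested. The 6 peaks of the Klf4 stretch measured 155 to 418 bp, covered 1480 bp and lay 3.39 to 10.3 kb from the central peak. The gTKO list had 0 peaks in this stretch. The wider ones ran from 55538462 to 55538879 (418 bp) and from 55536669 to 55537053 (385 bp), and the others, at 155 to 202 bp, ran from 55532293 to 55532447, from 55535201 to 55535402, from 55539063 to 55539219 and from 55539234 to 55539396. The remaining control-only peak on this side lay farther out, from 55493343 to 55493559 (217 bp). The gap in the gTKO list around the stretch was 14760 bp long and held 1975 bp of control peaks, which ranked 117 among the gaps. By the length of control-only peaks, the measure by which it was picked in its window, the stretch ranked 113 of 38356. With both lists limited to peaks of at least 300 bp, 0 gTKO-only and 2 control-only peaks remained among 7 peaks per list at Klf4. At Klf2 the same limit left 0 gTKO-only and 15 control-only peaks among 10 gTKO and 24 control peaks. The control-only ones include control peaks whose only partner was narrower than 300 bp. The share over all placed peaks was not computed under this limit, so these counts cannot be set beside the whole list.

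Most outer Klf4 peaks were shared, apart from the narrow gTKO-only and control-only peaks far below the central peak. The farthest above the central peak measured 1257 bp in gTKO, from 55663740 to 55664996, and 1413 bp in control, from 55663630 to 55665042. The next measured 536 bp in gTKO and 757 bp in control. Below it, a pair measured 566 bp in gTKO and 716 bp in control. In the remaining pair the gTKO peak was the wider, with 211 bp in gTKO and 182 bp in control. The median ratio of gTKO over control width was 0.84 (4 pairs, range 0.71 to 1.16), and in 0 of 4 pairs was the control peak at least 1.5 times as wide. At 7.27 kb above the central peak, 2 gTKO peaks of 393 and 198 bp lay inside a control peak of 751 bp, from 55554082 to 55554832. Above the central peak and its edges, no control peak of the Klf4 window lacked a gTKO partner.

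**Figure D4:**
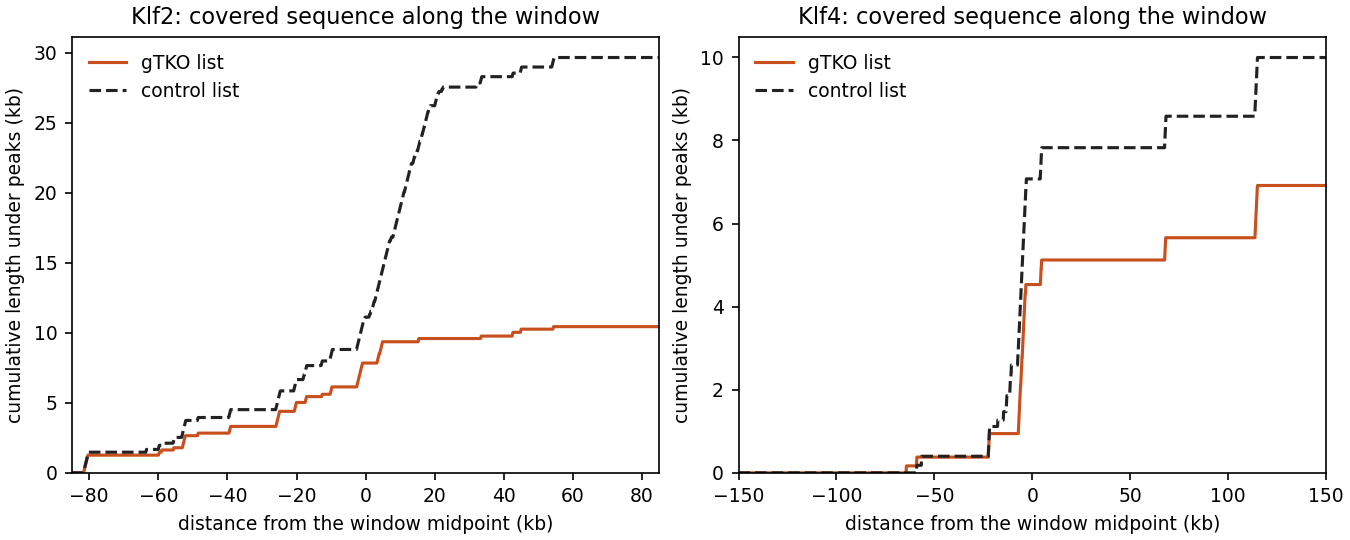
Cumulative length under peaks along the Klf2 (left) and Klf4 (right) windows, in kb, against distance from the window midpoint in kb, for the gTKO list (solid) and control list (dashed). At Klf2 the curves are already apart below the stretch (6136 bp in gTKO and 8807 bp in control), part most within it and end at 10438 bp in gTKO and 29653 bp in control. At Klf4 they end at 6915 bp in gTKO and 9995 bp in control.

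Narrow peaks lacked a partner more often in both lists, so the loci were also set beside control peaks of like width. Between 150 and 199 bp, 10 of 11 control peaks at Klf2 and 4 of 5 at Klf4 had no gTKO partner, against 66.4% of all such control peaks. Between 200 and 299 bp, 5 of 8 at Klf2 and 3 of 3 at Klf4 were control-only, against 38.5%. Between 300 and 499 bp, 2 of 6 at Klf2 and 2 of 2 at Klf4 were, against 19.1%. Between 500 and 999 bp, 5 of 11 control peaks at Klf2 (exact interval 16.7 to 76.6%) and 0 of 3 at Klf4 were control-only, against 3.65%. From 1000 bp upwards, 2 of 7 at Klf2 (exact interval 3.67 to 71.0%) and 0 of 2 at Klf4 were, against 0.469%. The shares at Klf2 were above those of the whole list in each of the 5 classes. In each class under 500 bp, however, the exact interval at Klf2 included the share of the whole list. It was 58.7 to 99.8% at 150 to 199 bp and 24.5 to 91.5% at 200 to 299 bp. At 300 to 499 bp it was 4.33 to 77.7%. Further, 20 of the 24 control-only peaks at Klf2 lie in the single stretch described above. They include all 7 of the 2 widest classes and 13 of those under 500 bp, so the classes are no separate evidence. At Klf4 each class held at most 5 control peaks.

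**Figure D5:**
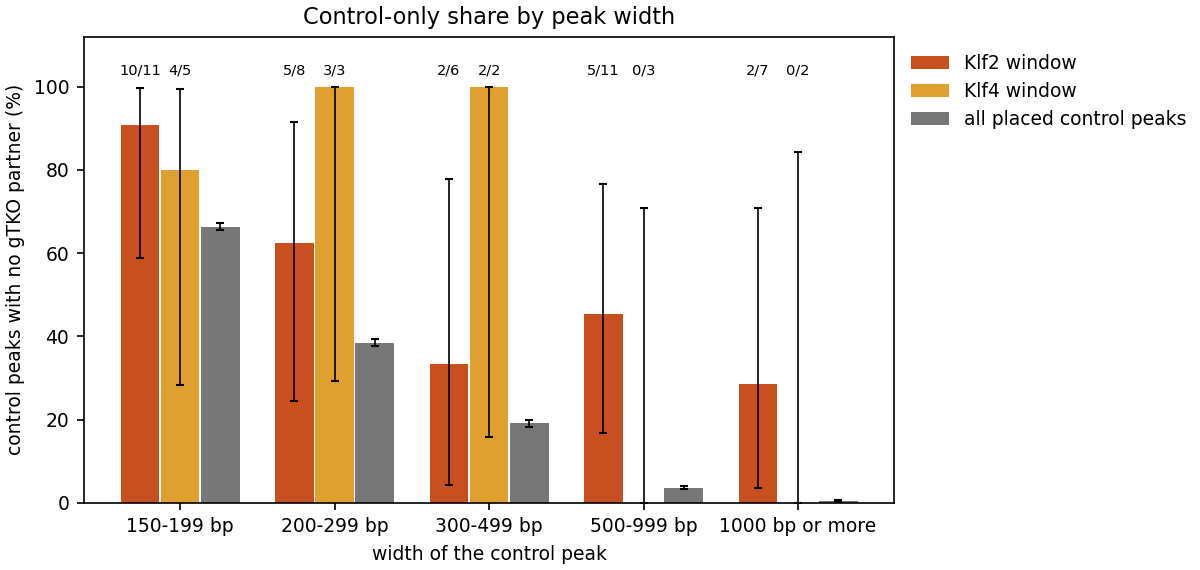
Share of control peaks with no gTKO partner, in percent, by width of the control peak, for the Klf2 window, the Klf4 window and all placed control peaks. Error bars are exact 95% Clopper-Pearson intervals for counting error, and numbers above the bars are control-only peaks of all peaks in the class. At 500 to 999 bp Klf2 stands at 5 of 11, against 3.65% of all control peaks.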

How the data were processed

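ATAC-seq peaks from 3 gTKO and 3 control libraries were analysed as 2 deposited lists of mm9 positions, 1 per genotype, each with sequence name, start and end and no score. Bowtie2, Picard, MACS2 and bedtools are named, with the build mm9, in the submitters' processing notes. The peak threshold, the filter on duplicates and any pooling of libraries before calling are not stated there. The 16 RNA-seq libraries of the series were not analysed here. Starts were counted from 1. Peaks on chromosomes 1 to 19, X and Y were kept, which left out 620 gTKO and 1044 control peaks on unplaced sequences. Merging overlapping peaks changed no list. A peak was shared if 1 bp or more of it was overlapped by the other list, checked with bedtools 2.31.1 and tested on simulated lists with known answers. Control-only and gTKO-only peaks, peaks of at least 1 kb and the peak nearest to each window midpoint are given with positions, and the rest by count and range. The windows, members and lists were chosen with earlier results of these data known, and the central peaks and stretches after the lists were seen. The planned counts of flow-pathway genes and cell type markers needed mm9 gene positions and were not made. Alternatives concerned the overlap rule, peak width, list size, window and chaining distance. The software was Python 3.11.15 with scipy 1.17.1, pandas 2.3.3, numpy 2.4.6 and matplotlib 3.10.9.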

Additional observations from a re-analysis of the deposited data

How the results depend on the processing

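Of 54 values recomputed under an alternative, 43 stayed within 1.5 times of the value above. Some of these could not change, so the tally is no measure of robustness. With equally many peaks per list, for example, the smaller gTKO list is kept whole and its coverage stays as it was. When 50% of both peaks had to overlap, 6 of 20 gTKO peaks at Klf2 counted as gTKO-only (reported 0) and 6 of 11 at Klf4 (reported 1). Shares over all placed peaks were not computed under this or the other alternatives. Whether such changes are particular to the loci is therefore not known. With peaks of at least 300 bp in both lists, control-only peaks numbered 15 at Klf2 and 2 at Klf4, those in the stretches 9 at Klf2 and 2 at Klf4, and gTKO-only peaks at Klf4 0. With equally many peaks per list, the widest kept, there was 1 gTKO-only peak at Klf2, and control-only peaks at Klf4 numbered 5, with 3 in its stretch. With the outer parts of the Klf2 window left out (0.5 of its length) the gTKO list covered 6929 bp and the control list 24335 bp. In all settings run at either locus, control-only peaks outnumbered gTKO-only peaks and the control list covered more sequence. The control list is the larger one in most settings, which favours that direction. The Klf2 stretch held 20 control-only peaks when peaks were chained within 2 or 5 kb, and the Klf4 stretch 5 and 8. The alternatives for the stretches were chosen after seeing the data. No paired analysis was possible because the lists do not separate the 3 libraries of a genotype, nor could a library be left out. The alternative with a q value was not run, since the lists hold none. The depth behind the lists is unknown, and its part in the results was not tested.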
